A study of Homo sapiens with 12 samples.

Results

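The response of vehicle-pretreated RBE cells to Nutlin was measured in 6 of the 12 poly(A) RNA sequencing libraries of the series, 3 with Nutlin against 3 without. RBE is an established human cholangiocarcinoma line, a cancer of the bile duct, that carries mutant IDH1. The group called vehicle held cells kept for 22 days in DMSO, labelled at 5 µM like the drugs. The group called vehicle_Nutlin held cells kept for 22 days in DMSO and then given 5 µM Nutlin for 72 hours. Both groups share the line, the medium and the long DMSO exposure, and no library of either group saw AG-120. The remaining 6 libraries come from cells kept for 22 days in 5 µM AG-120, an inhibitor of mutant IDH1. They were given no Nutlin (AG120) or were then given 5 µM Nutlin for 72 hours (AG120_Nutlin). These 6 libraries share in the estimate of the spread and in 1 comparison at the end. The series asked how the metabolite 2-HG alters the expression programme that p53 directs. Whether replicates were grown as separate cultures is not stated, so p-values measure the spread between these libraries, which may be technical. The response is that of a single line at a single dose and time.

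p53 is a transcription factor that is made and destroyed continuously. MDM2, a ubiquitin ligase, binds p53, blocks it and sends it to the proteasome, and Nutlin occupies the pocket on MDM2 that holds p53. Released p53 binds paired short DNA sites and raises genes of arrest, death, repair and metabolism, MDM2 itself among them. Among its targets, p21 (CDKN1A) inhibits cyclin-dependent kinases, which leaves RB-family proteins active. Those proteins act with E2F factors and with the DREAM complex, which sits at E2F sites and at CHR elements of cell cycle promoters.

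Libraries held 17239172 to 27499433 counts in vehicle and 17329488 to 24052218 in vehicle_Nutlin. Of 55773 entries, 29603 held a count in some library and 15691 passed the filter on low counts. A gene too low for the filter in vehicle was tested through other groups and could hardly be called lower. The reverse holds for genes too low after Nutlin, and tallies below include both kinds. Levels are CPM scaled by trimmed mean of M values, which are not divided by transcript length and so compare 1 gene between libraries, not genes with each other. Unless stated otherwise, changes are log2 fold changes of Nutlin against vehicle from edgeR's quasi-likelihood test, adjusted p is by Benjamini-Hochberg over all 15691 genes, and an adjusted p of 0.05 or less made a call. The vehicle libraries lay close together, with a median SD per gene of 0.0964 on the log2 scale, and the vehicle_Nutlin libraries lay farther apart, at 0.265. In vehicle_Nutlin replicates 1, 2 and 3, 2.76%, 5.54% and 9.56% of genes were more than 2-fold away from the mean of their companions. How far a library deviated from its 2 companions correlated across genes with transcript length at 0.339, 0.205 and -0.338 in these 3 libraries (Spearman, 13510 genes with a length, no test), against -0.058 to 0.101 in vehicle. Mitochondrially encoded genes took 1.02% to 1.35% of counts in vehicle and 1.71% to 3.45% in vehicle_Nutlin. In bulk samples, fewer cells of a kind and less RNA per cell cannot be told apart.

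The response was broad and, under the scaling used, nearly even in direction. Nutlin was followed by higher levels of 4206 genes (26.8% of those tested) and lower levels of 4258 (27.1%), so 53.9% of genes were called and each count below has to be read against those shares. At least 2-fold, 1855 genes (11.8%) rose and 2181 (13.9%) fell, at least 4-fold 736 (4.69%) rose and 869 (5.54%) fell, and at least 16-fold 236 (1.5%) rose and 230 (1.47%) fell. The median change over all genes was -0.02. The scaling sets most genes near 0, so the even split follows from it in part. Scaled by library totals, 3623 genes were called higher and 4772 lower. A fit of only the 6 compared libraries tested 14976 genes and called 3512 higher and 3467 lower. All 3 vehicle_Nutlin libraries lay above all 3 vehicle libraries for 4448 genes (28.3%) and below them for 4856 (30.9%). Genes called at least 2-fold higher held 5.71% to 5.96% of the counts in vehicle and 17.8% to 20.4% after Nutlin. Those called at least 2-fold lower held 15.1% to 15.3% before and 3.94% to 4.78% after. Among 623 long intergenic RNAs tested, 148 rose and 110 fell, and among 1211 pseudogenes 169 rose and 240 fell, against 3694 and 3753 of 12952 protein-coding genes.

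**Figure D1:**
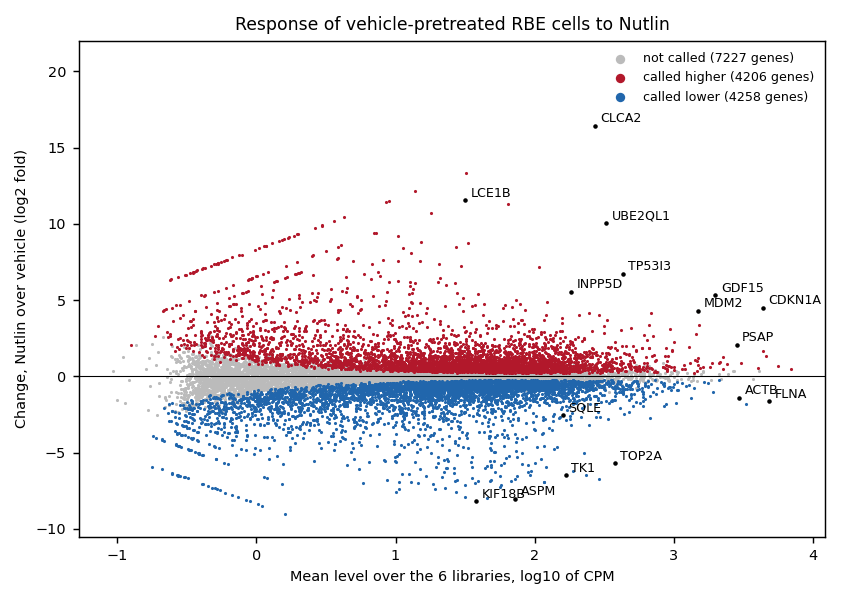
Each point is one of the 15691 tested genes, with its mean level over the 6 libraries on the x axis (log10 of CPM) and its change on the y axis (log2, Nutlin minus vehicle). Genes at 0 counts in a group are drawn at their fitted change, which depends on the prior count. Called genes are coloured by direction, and the 236 and 230 genes past 16-fold fan out on both sides of the line at 0.

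The 12 largest gains in CPM included arrest, stress, lysosomal, translation and mitochondrially encoded genes. CDKN1A (hg19 chromosome 6, 36644305 to 36655116), which encodes p21, stood at 395, 374 and 371 CPM in vehicle and at 7840, 8092 and 9400 CPM in vehicle_Nutlin. The groups lay far apart, and the change was 4.47 ± 0.14 (log2 ± SE, adjusted p = 5.397e-11), the largest gain in CPM. GDF15 (chromosome 19, 18485541 to 18499986), a secreted stress cytokine, went from 108, 100 and 87.5 CPM to 4042, 4188 and 3471 CPM, a change of 5.31. The next gains included PSAP, the precursor of the lysosomal saposins (1095 ± 65.2 to 4581 ± 867 CPM, mean ± SD, n = 3), the membrane protein ITM2B (374 ± 24.3 to 2540 ± 403 CPM) and the secreted growth factor progranulin, GRN (543 ± 40.8 to 2047 ± 294 CPM). The translation factor EEF2 rose by 0.66. EEF1A1 and RPS4X, whose reads many processed pseudogenes can share, had changes of 0.51 and 0.87, and EEF1A1 stood at 6703, 6469 and 11550 CPM after Nutlin. Without vehicle_Nutlin replicate 3 its change was 0.18 and was not called.

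The 12 largest losses in CPM included genes of the cytoskeleton, glycolysis, lipid synthesis and the spindle. ACTG1 and ACTB, the cytoplasmic actins, changed by -1.81 and -1.41. FLNA, which crosslinks actin, stood at 7580, 7297 and 7131 CPM in vehicle and at 2968, 3102 and 992 CPM after Nutlin, a change of -1.64. Its lowest value was in replicate 3, and the long transcripts of the nonmuscle myosin MYH9 (1006, 999 and 171 CPM) and of fatty acid synthase, FASN (625, 621 and 174 CPM), were also lowest there. MYH9 was not called when only the 6 compared libraries were fitted (-1.42). The tubulins TUBB and TUBB4B changed by -1.91 and -2.72, the glycolytic enzymes ENO1 and LDHA by -1.05 and -1.83, and the chaperone HSP90AA1 by -0.76. TOP2A, the topoisomerase that untangles replicated chromosomes, fell by 5.69, from 742 ± 24.7 to 14.4 ± 1.18 CPM.

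Genes of the p53 circuit and its brakes moved in both directions. Of 16 tested genes in this group, 9 rose and 3 fell, with a median change of 0.56. MDM2 (chromosome 12, 69201956 to 69239214) stood at 142, 154 and 142 CPM in vehicle and at 2951, 2107 and 3484 CPM after Nutlin, a change of 4.29 ± 0.19 (adjusted p = 1.029e-09). PPM1D, a phosphatase that dampens p53 signalling, rose from 25.1 ± 1.65 to 135 ± 22.4 CPM, and TP53INP1, a p53 target that acts back on p53, from 57.3 ± 1.71 to 573 ± 126 CPM. The p53 relative TP73 dropped from 20.1, 19.2 and 19.3 CPM to 0.424, 0.659 and 0.214 CPM, a change of -5.55. Its levels after Nutlin could not have passed the filter, so it could only be lower. IDH1, the enzyme mutated in this line, fell from 171 ± 2.76 to 110 ± 19.4 CPM (-0.64).

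Arrest genes rose almost as a block, with 15 of 17 tested higher, 1 lower and a median of 2.46. Beside CDKN1A, the antiproliferative factor BTG2 stood at 26.3, 24.9 and 26.2 CPM in vehicle and at 456, 479 and 454 CPM after Nutlin (4.16). SESN1, a stress-induced brake on mTORC1, rose by 3.49 and TRIM22, an interferon- and p53-induced ubiquitin ligase, by 4.71. The exception that fell was GADD45B, a stress sensor better known as an NF-kB target, at 43.1 ± 1.97 CPM before and 15.1 ± 2.52 CPM after.

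Death genes moved in both directions, beside 26.8% higher and 27.1% lower over all tested genes. Of 11 death and decoy receptors, 8 rose and 2 fell (median 1.02). The 8 include EDA2R, whose vehicle level could not have passed the filter, so it could only be higher. FAS rose by 2.91, TNFRSF10B, the TRAIL receptor DR5, by 1.70, TNFRSF10D, a TRAIL decoy, by 2.47, and EDA2R from 0.339 ± 0.063 to 11.1 ± 2.26 CPM (5.03). TNFRSF19 and TNFRSF21 changed by -1.15 and -0.55. In the BCL2 family and the mitochondrial death machinery, 10 of 20 rose and 4 fell, with a median of 0.36. The risers named by the rule were BBC3, which encodes PUMA (31 ± 1.29 to 175 ± 26.4 CPM), BAK1 (2.00), BCL2L11, which encodes BIM (1.25), and APAF1, the apoptosome scaffold (1.01). BOK changed by -1.16 and the survival gene BCL2 by -0.67. Among caspases and their brakes 7 of 17 rose and 5 fell, or 7 to 9 and 4 to 6 over the alternatives tried, so this group showed no clear direction. CASP10 rose by 2.66, the p53-induced nuclease AEN by 1.86 and PIDD, the scaffold of caspase-2, by 2.90. BIRC5, which encodes the mitotic protein survivin, fell from 37 ± 6.74 to 0.245 ± 0.236 CPM, and BIRC3 fell by 0.98. After Nutlin BIRC5 was too low for the filter, so it could only be lower.

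The genes linked to p53 that act at the membrane or outside the cell moved almost uniformly, with 46 of 49 tested higher and 2 lower (median 2.15, the same with the 1 gene at 0 in vehicle set at its lower bound). This list and the arrest list were written with earlier results of these data known. Their members were picked for links to p53, so their rise is not an independent result. The quinone oxidoreductase-like TP53I3, which the list holds beside them, stood at 6.82, 7.18 and 10.1 CPM in vehicle and at 802, 860 and 905 CPM after Nutlin (6.73 ± 0.16, adjusted p = 1.445e-11). ABCA12, the lipid transporter of the skin barrier, rose by 4.85, ASTN2 by 3.66 and the receptor TNFRSF14 (HVEM) by 3.18. The 2 that fell were THBS1, an antiangiogenic matrix protein (945 ± 39.7 to 251 ± 52.5 CPM), and ABCB1, the drug efflux pump (38 ± 1.63 to 17.6 ± 2.88 CPM). Of 10 long noncoding RNAs linked to p53, 5 rose and 0 fell, among them LINC01021 (6.16), TP53TG1 (3.62), MIR22HG (1.46) and PVT1 (1.30). LINC01021, at 0.256 ± 0.122 CPM in vehicle, could not have passed the filter there and could only be higher.

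**Figure D2:**
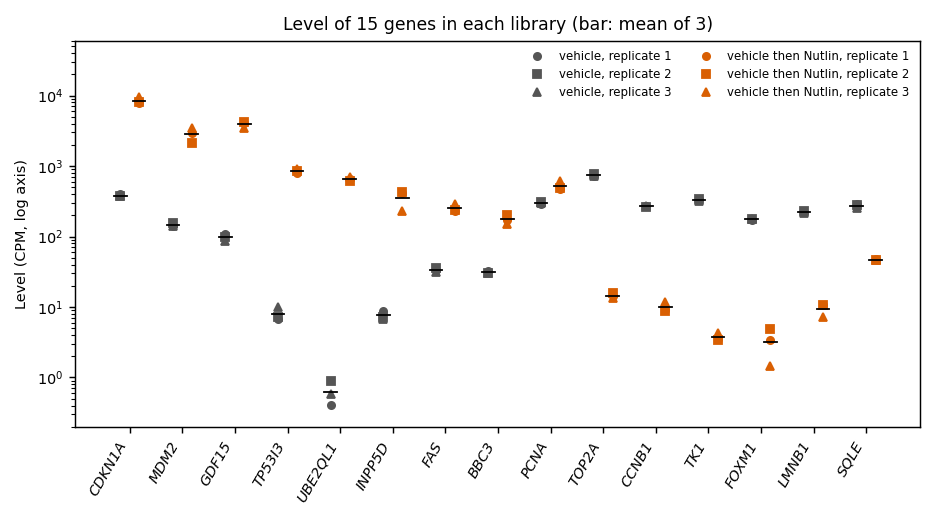
Each point is 1 library, with the gene on the x axis and the level on a log10 axis (CPM), for vehicle and vehicle_Nutlin. The 3 points of a group lie close together beside the distance between groups, as for CDKN1A at 371 to 395 against 7840 to 9400 CPM.

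Some genes had no read at all before Nutlin. In all, 24 genes held 0 counts in every vehicle library and at least 1 CPM in every vehicle_Nutlin library, 17 of them protein-coding, 4 long intergenic, 1 antisense and 2 pseudogenes. A count of 0 over the 3 vehicle libraries allows up to 0.045 CPM (3 counts over the group, counting error only), and folds against them are lower bounds on that floor. CLCA2 (chromosome 1, 86889769 to 86922241), an epithelial adhesion and channel-modulating protein known as a p53 target, stood at 485, 473 and 669 CPM with Nutlin, which is at least 12056-fold higher than that floor. PYHIN1, an interferon-inducible nuclear protein, stood at 5.29, 6.95 and 5.51 CPM. LAMC3, a laminin chain, stood at 5.61, 8.99 and 3.12 CPM, UNC45B, a myosin chaperone, at 19.8, 15.6 and 18.5 CPM, and HHATL, a relative of the Hedgehog acyltransferase, at 23.8, 25.4 and 33.6 CPM. HHATL-AS1 overlaps HHATL (chromosome 3, 42734155 to 42744319 and 42744145 to 42748154), so its 8.84, 8.87 and 4.1 CPM may hold reads of HHATL. In the AG-120 groups, 12 of the 24 also held 0 counts without Nutlin and 23 reached 1 CPM in every AG120_Nutlin library. In the other direction, 7 genes with at least 1 CPM in every vehicle library held 0 counts in all 3 vehicle_Nutlin libraries. Outside the naming rule and picked from those 7 after their values were seen, KIF26A stood at 3.61, 2.43 and 3.61 CPM before and the transcription factor MYB at 1.75, 1.41 and 2.23 CPM.

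The late cornified envelope cluster held LCE1C and LCE1F, which are among these 24. The LCE genes encode small proteins that seal the outer skin, and 6 of 18 listed genes held a count after Nutlin. LCE1B stood at 0, 0.0566 and 0 CPM in vehicle and at 62, 63.9 and 64.1 CPM after Nutlin, and LCE1C at 0 in all 3 and then at 67.7, 67.4 and 58.5 CPM. LCE1E stood at 0, 0.0566 and 0 CPM and then at 16.5, 13.2 and 13.9 CPM, and LCE1F reached 17.1, 16.7 and 17.4 CPM. The 4 genes lie on chromosome 1 between 152748848 (start of LCE1F) and 152785585 (end of LCE1B), and LCE1D and LCE1A, at 152769227 to 152770657 and 152799949 to 152800573, did not pass the filter. LCE1 copies are close to each other in sequence, so the split of reads among them is uncertain. Of 61 epidermal differentiation genes listed, 27 held a count and 14 were tested. The 4 LCE1 genes could not have passed the filter on their vehicle levels and had to be higher, so no tally or median is given for this group. GRHL3, a transcription factor of the skin barrier, rose from 2.45 ± 0.149 to 28.4 ± 4.96 CPM. S100A2 and GRHL1 changed by -2.45 and -1.53.

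Single members of neuronal families moved far while their families did not stand out in the main fit. Among 55 axon guidance ligands and receptors, 16 rose and 18 fell (median 0.03, or -0.10 to 0.24 over the alternatives tried). DRAXIN, a secreted guidance protein, stood at 0.1, 0 and 0.0344 CPM in vehicle and at 189, 153 and 43.1 CPM after Nutlin. It is among the 16, but its vehicle level could not have passed the filter, so it could only be higher. EFNB1 rose by 3.67 and SEMA3F, known as a p53 target, by 4.05, and SEMA7A fell by 2.74. Among 47 voltage-gated channel subunits, 15 rose and 12 fell (median 0.01), but 3 sodium channel genes rose by large factors. SCN2A went from 0.167 ± 0.108 to 13.2 ± 1.83 CPM, SCN3B from 0.126 ± 0.0613 to 4.13 ± 0.694 CPM and SCN4B from 0.166 ± 0.0968 to 8.6 ± 1.71 CPM. The 15 include these 3, whose vehicle levels could not have passed the filter, so they could only be higher. The potassium channels KCNS3, KCNK3 and KCNK5 changed by -1.49, -5.42 and -2.99. KCNK3, at 0.0177 ± 0.0306 CPM after Nutlin, was too low for the filter there and could only be lower. UBE2QL1, related to ubiquitin-conjugating enzymes, showed one of the largest changes of all, from 0.401, 0.905 and 0.585 CPM to 653, 615 and 703 CPM (10.04 ± 0.28). BLNK, an adaptor of B cell receptor signalling, and LCN15, a lipocalin, rose to 20.9 ± 3.74 and 35.9 ± 7.24 CPM from single reads.

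Most replication genes fell. Of 30 origin licensing and firing genes, 27 fell and 1 rose (median -3.02), of 40 replicative polymerases and fork factors 35 fell and 3 rose (-2.11), and of 20 genes of deoxynucleotide supply 13 fell and 4 rose (-0.98). CDC6, which loads the MCM helicase, stood at 96.7, 92.3 and 97.7 CPM in vehicle and at 2.22, 1.2 and 1.24 CPM after Nutlin (-5.94). The helicase subunits MCM4, MCM5 and MCM6 changed by -3.21, -3.19 and -3.45. GMNN, which encodes the licensing inhibitor geminin, was the exception, at 49.5 ± 2.72 CPM before and 74.9 ± 10.7 CPM after. The histone chaperone ASF1B changed by -5.30, the chromatin ATPase ATAD2 by -4.65, the primase PRIM1 by -3.46 and the flap nuclease FEN1 by -2.39. PCNA, the sliding clamp and a known p53 target, rose from 300 ± 9.23 to 521 ± 75.2 CPM (0.80), and the polymerase delta subunit POLD4 rose by 0.92.

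Both small subunits of ribonucleotide reductase moved, in opposite directions. RRM2, the S-phase subunit, stood at 227, 235 and 234 CPM in vehicle and at 1.38, 2.58 and 1.75 CPM after Nutlin. RRM2B, the p53-induced subunit, went from 95.3, 95.2 and 87.2 CPM to 711, 650 and 878 CPM. Neither pair overlapped, and the changes were -6.94 ± 0.23 and 3.01 ± 0.12. Thymidine kinase TK1 fell by 6.48. In purine and pyrimidine synthesis 15 of 23 fell and 3 rose (median -0.66), with PAICS, MTHFD1 and IMPDH1 at -1.83, -1.71 and -1.46 and ADSSL1 and PRPSAP2 at 1.67 and 1.21. Of 40 genes of homologous recombination and the Fanconi pathway 30 fell and 2 rose (-1.86). RAD51AP1 changed by -4.26, BRCA1 by -3.92 and FANCI by -3.84, and RAD51C and RAD52 rose by 1.34 and 0.70.

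Most spindle and kinetochore genes fell, with the lowest medians of the groups described. Of 43 spindle motors and organisers, 39 fell and 1 rose (median -4.97), and 32 of them fell at least 4-fold. Of 46 kinetochore and centromere genes, 40 fell and 1 rose (-3.71). Both tallies and medians include genes whose levels after Nutlin could not have passed the filter, so they could only be lower. Examples are KIF18B, KIF14 (0.353 ± 0.119 CPM after Nutlin) and SPC25 (0.133 ± 0.122 CPM). KIF18B, a microtubule-depolymerising kinesin, stood at 75, 72.7 and 79.8 CPM in vehicle and at 0.371, 0 and 0.342 CPM after Nutlin (-8.19). ASPM, which focuses spindle poles, went from 145, 142 and 147 CPM to 0.9, 0.779 and 0.0855 CPM. KIF14, of cytokinesis, changed by -7.96, KIF11, the motor that pushes poles apart, by -5.39, and TACC3 by -3.98. KIF2A, which has roles outside mitosis, rose by 0.41. The checkpoint kinases BUB1 and BUB1B changed by -5.34 and -4.99, NUF2 by -6.02 and CENPM by -4.12, while MAD1L1 rose by 1.05. KIF4A fell with them, but its near-identical copy KIF4B may share its reads.

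The remaining cell cycle groups had medians closer to 0 than those of the spindle and kinetochore genes. In condensin, cohesin and topoisomerases 23 of 28 fell and 1 rose (median -1.56), with CDCA5, the cohesin protector sororin, at -4.86, NCAPD3 at -2.80 and TOP1 at 0.65. In the anaphase-promoting complex and its E2 enzymes 13 of 21 fell and 2 rose (-0.80), with the activator CDC20 at -5.92, UBE2C at -6.52 and the core subunit ANAPC13 at 0.54. Of 24 cyclins, CDKs and their inhibitors 18 fell and 2 rose (-1.97). CCNA2, CCNB1 and CDK1 changed by -6.26, -4.75 and -5.73, and the risers were CDKN1A and CCND3 (0.51). Of 20 genes of RB, E2F, MuvB and FOXM1 13 fell and 3 rose (-0.68). The activators E2F1, E2F2, MYBL2 and FOXM1 changed by -4.70, -7.56, -6.94 and -5.80. E2F2, at 0.0923 ± 0.0863 CPM after Nutlin, was too low for the filter there and could only be lower. The pocket proteins RB1 and RBL2, which hold E2F genes off, rose from 153 ± 11.2 to 257 ± 37.6 CPM and from 68 ± 4.68 to 142 ± 4.25 CPM. Their relative RBL1 fell by 2.94, and the third gene that rose was E2F6 (0.41).

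Most chromatin and nuclear transport genes fell. Of 30 chromatin factors of dividing cells 25 fell and 2 rose (median -1.74). LMNB1, the B-type lamin whose loss is used as a senescence marker, stood at 224, 228 and 218 CPM in vehicle and at 10.6, 10.6 and 7.22 CPM after Nutlin (-4.57 ± 0.16). LBR, the lamin B receptor, changed by -2.24, TMPO by -2.68 and H2AFX by -3.40. LMNA, the A-type lamin, stood at 1277 ± 15.1 CPM before and 1515 ± 102 CPM after, at the edge of the threshold (adjusted p = 0.04997), and its call was lost under most alternatives tried. Of 35 nucleoporins and transport factors 26 fell and 1 rose (-0.79), with KPNA2 at -2.32, RANBP1 at -1.85 and NUP107 at -1.37. The 1 that rose, AHCTF1, had a change of 0.33 and was not called with library totals (0.24).

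**Figure D3:**
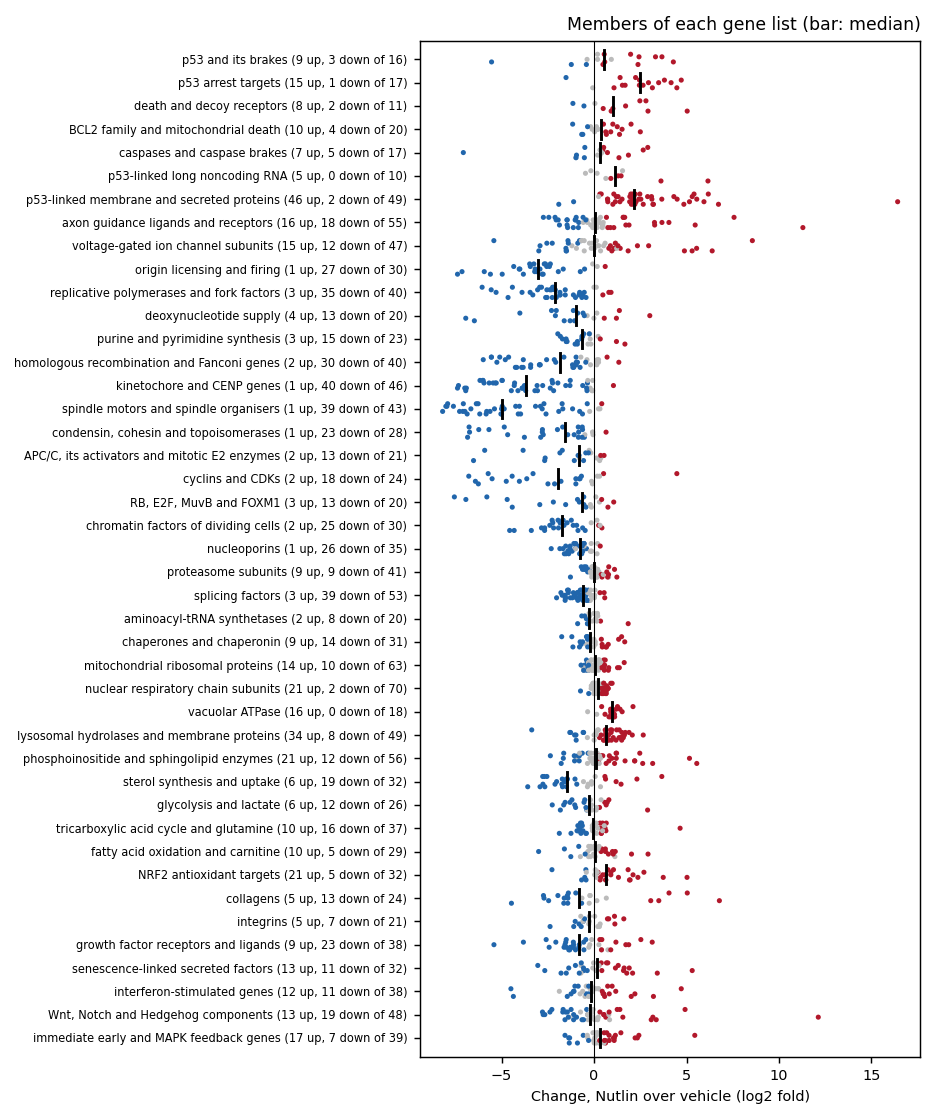
Each point is a tested gene of a group, with its change on the x axis (log2, Nutlin minus vehicle) and the groups on the y axis. The spindle, kinetochore and licensing groups lie mostly left of 0 with medians of -4.97, -3.71 and -3.02, and the arrest and membrane groups mostly right of it, with 2.46 and 2.15.

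The promoters of these groups were searched for known elements. For 10518 of 12952 tested protein-coding genes (81.2%), 250 bases before to 50 after the start were taken from RefSeq (GRCh38.p14) and searched on both strands. The CHR element was searched as TTTGAA and also in the variant with a CpG in its centre, TTCGAA. The CCAAT box was searched by the letters of its name, and E2F as TTTGGCGC, TTTCCCGC, TTTCGCGC or TTTGCCGC, with overlapping matches kept. Of 97 promoters of mitotic genes called lower (spindle, kinetochore, condensin and cohesin, anaphase-promoting complex), 57 held a CHR, or 58.8%, against 1162 of all 10518 promoters. Of 61 promoters of replication genes called lower (licensing, forks, nucleotide supply), 5 did, or 8.2%. E2F matches had the other order, at 34.4% of replication promoters, 11.3% of mitotic ones and 5.24% of all. CCAAT was found in 64.9%, 55.7% and 36.2% of mitotic, replication and all promoters. CHR matches of mitotic promoters also lay near the start: 30 of 67 matches (44.8%) began within 60 bases before it, against 15.1% of 1288 matches over all genes. The matches are letters in a window, not measured binding. For genes chosen by size of change fewer than 80% had a promoter, and for the sterol genes 63.2%, so no shares are given for them.

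**Figure D4:**
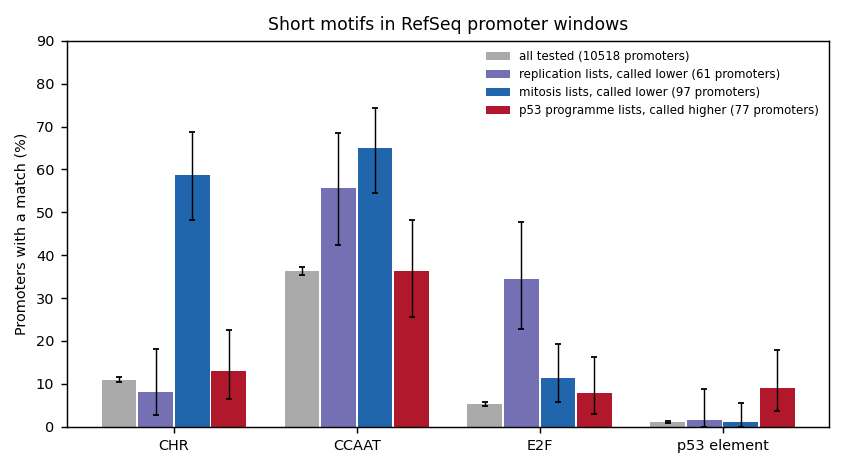
Bars give the share of promoters (percent, from 0) that hold each element, for all tested protein-coding genes and for the replication, mitosis and p53 groups, with exact (Clopper-Pearson) 95% binomial intervals that cover counting error only. CHR stands at 58.8% in the mitotic group and 8.2% in the replication group, and E2F at 11.3% and 34.4%.

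The first 4 promoters show the CHR in mitotic genes, taken as those with a CHR match and the smallest adjusted p among the proliferation groups. Each is 300 bases, 5′ to 3′ on the gene's strand, with the CHR in capitals (TTCAAA is TTTGAA read on the opposite strand). Positions count from the gene's start. In KIF11, BUB1B and CDCA5 the match begins 28, 23 and 26 bases before the start, and in TOP2A there are 2, at 194 and 151 bases before it. The promoters lie at chr17:40417847-40418146 (TOP2A, minus strand), chr10:92592880-92593179 (KIF11, plus), chr15:40160819-40161118 (BUB1B, plus) and chr11:65083991-65084290 (CDCA5, minus).
TOP2A: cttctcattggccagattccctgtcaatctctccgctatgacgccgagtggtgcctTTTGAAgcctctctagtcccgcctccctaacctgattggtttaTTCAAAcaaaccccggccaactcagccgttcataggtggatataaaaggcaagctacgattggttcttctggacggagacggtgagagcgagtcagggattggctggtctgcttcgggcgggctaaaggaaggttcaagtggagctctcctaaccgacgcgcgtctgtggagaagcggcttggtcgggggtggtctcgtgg
KIF11: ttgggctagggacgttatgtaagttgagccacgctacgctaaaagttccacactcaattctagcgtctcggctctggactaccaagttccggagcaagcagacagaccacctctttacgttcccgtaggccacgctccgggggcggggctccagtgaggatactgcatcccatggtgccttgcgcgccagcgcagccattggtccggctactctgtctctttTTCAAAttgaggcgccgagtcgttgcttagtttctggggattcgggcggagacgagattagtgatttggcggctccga
BUB1B: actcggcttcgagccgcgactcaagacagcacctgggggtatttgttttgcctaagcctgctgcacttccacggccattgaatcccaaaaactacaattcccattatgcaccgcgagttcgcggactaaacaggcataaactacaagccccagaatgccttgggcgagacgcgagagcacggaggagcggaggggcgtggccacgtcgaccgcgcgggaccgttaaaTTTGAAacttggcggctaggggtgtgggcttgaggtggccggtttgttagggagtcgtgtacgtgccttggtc
CDCA5: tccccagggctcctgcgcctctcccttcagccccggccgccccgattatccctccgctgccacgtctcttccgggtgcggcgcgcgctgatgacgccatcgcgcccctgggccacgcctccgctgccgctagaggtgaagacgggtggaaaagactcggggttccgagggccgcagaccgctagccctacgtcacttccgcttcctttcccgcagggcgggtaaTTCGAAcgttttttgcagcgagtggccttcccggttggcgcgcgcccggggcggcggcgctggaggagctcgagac
These 4 genes changed by -5.69, -5.39, -4.99 and -4.86.

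The E2F element is shown in 2 replication genes, chosen after their values were seen, with the matches in capitals. In MCM6 (chr2:135876394-135876693, minus strand) the same 12 letters occur at 2 places, and each holds an overlapping match on both strands, 4 matches in all between 152 and 86 bases before the start. In CDC6 (chr17:40287629-40287928, plus strand) the match begins 7 bases past the start.
MCM6: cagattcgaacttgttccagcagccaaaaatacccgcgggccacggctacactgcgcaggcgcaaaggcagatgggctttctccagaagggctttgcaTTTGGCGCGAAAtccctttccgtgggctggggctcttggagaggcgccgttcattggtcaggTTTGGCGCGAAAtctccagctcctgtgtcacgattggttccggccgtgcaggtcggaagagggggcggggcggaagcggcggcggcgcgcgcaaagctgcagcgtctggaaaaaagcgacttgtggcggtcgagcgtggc
CDC6: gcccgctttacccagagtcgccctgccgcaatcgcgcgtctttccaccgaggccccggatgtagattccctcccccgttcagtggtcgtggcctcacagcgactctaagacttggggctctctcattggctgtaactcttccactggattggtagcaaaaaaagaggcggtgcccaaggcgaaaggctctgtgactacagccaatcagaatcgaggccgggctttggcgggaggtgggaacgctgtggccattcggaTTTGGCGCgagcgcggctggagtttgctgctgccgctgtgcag
Both fell, with changes of -3.45 and -5.94.

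The p53 element was searched by name, as 2 adjacent sites of 10 bases with at most 3 mismatches to the consensus and the C and G of each core kept. It was found in 7 of 77 promoters of p53-programme genes called higher (9.09%) and in 1.13% of all promoters, so most of these genes showed no such match in this window. The 7 were AEN, CLCA2, DCP1B, GDF15, PMAIP1, RPS27L and TGFA, with changes from 0.31 (TGFA) to that of CLCA2, which had no read before Nutlin. AEN (chr15:88621090-88621389, plus strand) holds its match 34 bases before the start and CLCA2 (chr1:86423921-86424220, plus strand) 102 bases before it, both printed with the match in capitals and both chosen after their values were seen.
AEN: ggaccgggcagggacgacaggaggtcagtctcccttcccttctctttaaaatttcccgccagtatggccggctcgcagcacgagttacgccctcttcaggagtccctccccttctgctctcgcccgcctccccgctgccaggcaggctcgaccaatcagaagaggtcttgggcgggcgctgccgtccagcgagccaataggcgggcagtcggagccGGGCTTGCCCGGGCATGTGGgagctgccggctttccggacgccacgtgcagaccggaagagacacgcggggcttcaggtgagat
CLCA2: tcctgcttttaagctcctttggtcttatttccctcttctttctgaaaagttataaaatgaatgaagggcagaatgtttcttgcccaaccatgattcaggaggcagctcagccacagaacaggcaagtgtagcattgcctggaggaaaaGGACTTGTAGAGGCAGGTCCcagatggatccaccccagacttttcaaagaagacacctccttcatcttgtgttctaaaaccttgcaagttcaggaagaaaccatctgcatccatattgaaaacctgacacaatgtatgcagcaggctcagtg
AEN stood at 87.1, 81.3 and 85.7 CPM in vehicle and at 285, 280 and 355 CPM after Nutlin.

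Most splicing factors fell, by modest amounts. Of 53 splicing factors 39 fell and 3 rose (median -0.60). SRSF2, a serine-arginine splicing factor, stood at 117, 126 and 129 CPM in vehicle and at 31.5, 29.8 and 29.8 CPM after Nutlin. SRSF1, SRSF3 and SNRPA changed by -1.57, -1.56 and -1.80, and SF3A3 rose by 0.58. Among 20 aminoacyl-tRNA synthetases 8 fell and 2 rose (-0.25), and SARS, the cytosolic seryl-tRNA synthetase, stood apart at 170, 166 and 160 CPM before and 545, 526 and 708 CPM after. Of 31 chaperones 14 fell and 9 rose (-0.24), or 9 fell in a fit of the 6 libraries alone. FKBP5, HSP90B1 and HSPD1 changed by -1.75, -1.20 and -1.15, and HSPA4L and DNAJB9 rose by 1.49 and 1.66.

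For the proteasome and the mitochondrion, leaving out single libraries moved the counts. Of 41 proteasome subunits 9 rose and 9 fell, but 16 fell without vehicle_Nutlin replicate 3. The activators PSME2 and PSME4 rose by 1.10 and 1.23 and the immunoproteasome subunit PSMB9 fell by 1.28. Of 63 mitochondrial ribosomal proteins 14 rose and 10 fell, with 20 lower without replicate 3, 5 without replicate 1 and 6 without replicate 2 of vehicle_Nutlin, and 4 and 6 without vehicle replicates 2 and 3. Of 70 nuclear subunits of the respiratory chain 21 rose and 2 fell (median 0.19), or 6 fell without vehicle_Nutlin replicate 3. NDUFS5 rose by 0.97, and ATP5G1 fell by 0.74. The 13 mitochondrially encoded messages had changes from 0.71 to 1.70, of which 8 passed the test and 13 did without replicate 3. MT-CO1 stood at 2745, 2256 and 2898 CPM in vehicle and at 8454, 8309 and 3081 CPM after Nutlin, and MT-ND3 at 372, 489 and 525 and then 1383, 1542 and 1565 CPM.

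Most lysosomal genes rose. Of 18 subunits of the vacuolar ATPase, the pump that acidifies lysosomes, 16 rose and 0 fell (median 0.96), and of 49 lysosomal hydrolases and membrane proteins 34 rose and 8 fell (0.67). ATP6V0D1 stood at 111, 109 and 100 CPM in vehicle and at 244, 248 and 356 CPM after Nutlin. The protease CTSD rose from 376 ± 28.8 to 1394 ± 63.9 CPM, the fucosidase FUCA1, known as a p53 target, from 24.1 ± 0.888 to 152 ± 27.9 CPM, and ARSA and MAN2B1 by 1.69 and 1.49. CTSV changed by -3.37, and MITF, which can drive lysosomal genes, by -1.31.

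Lipid signalling genes moved as single enzymes. Of 56 phosphoinositide and sphingolipid enzymes 21 rose and 12 fell (median 0.10). INPP5D, which encodes the phosphatase SHIP1, stood at 8.82, 7.3 and 6.77 CPM in vehicle and at 409, 432 and 232 CPM after Nutlin (5.55 ± 0.23). ACER2, a ceramidase known as a p53 target, went from 1.61 ± 0.5 to 59.4 ± 9.09 CPM, and PIK3IP1, an inhibitor of PI3-kinase, from 9.22 ± 1.01 to 82.8 ± 8.36 CPM. The phospholipases PLCE1 and PLCB4 changed by -2.37 and -1.78.

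Most sterol genes fell. Of 32 tested genes 19 fell and 6 rose (median -1.47). HMGCS1, SQLE and LSS, enzymes of cholesterol synthesis, changed by -2.77, -2.55 and -2.93. The exporters ABCA1 and ABCG1 rose, ABCA1 from 46.2, 44.2 and 46.5 CPM to 254, 234 and 193 CPM, and ABCG1 from 1.37 ± 0.451 to 17.4 ± 2.65 CPM. The other 4 that rose, outside the naming rule, were the synthesis enzymes PMVK (0.58) and TM7SF2 (1.19), the sterol sensor SCAP (0.62) and the ubiquitin ligase MYLIP (1.46). In glycolysis 12 of 26 fell and 6 rose (-0.29), and the summed level of the group was 18070 to 19070 CPM in vehicle and 14640, 14760 and 19620 CPM after Nutlin, so replicate 3 lay above vehicle. HK2 and GPI changed by -1.65 and -1.31, and the p53 target TIGAR (C12orf5 in the table), a phosphatase that slows glycolysis, rose from 26.3 ± 1.26 to 195 ± 19.8 CPM. In the tricarboxylic acid cycle and glutamine use 16 of 37 fell and 10 rose (-0.08), with GLS2, the p53-induced glutaminase, at 4.56, 4.02 and 5.36 CPM before and 104, 106 and 143 CPM after, and CS, FH and GLUL at -0.71, -0.88 and -1.88. In fatty acid oxidation 10 of 29 rose and 5 fell, or 9 fell without vehicle_Nutlin replicate 3. CROT and CPT2, which handle carnitine esters, rose by 2.92 and 2.02, and ACOX2 and LPIN1 changed by -3.00 and -1.61.

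Antioxidant genes linked to NRF2 rose in 21 of 32 cases and fell in 5 (median 0.62). HMOX1, heme oxygenase, stood at 11, 9.45 and 8.67 CPM in vehicle and at 128, 128 and 133 CPM after Nutlin. AKR1C1 and AKR1C3, aldo-keto reductases of a family close in sequence whose reads may be split uncertainly, rose by 5.03 and 2.69, and the exporter ABCC2 by 1.32. SLC7A11, the cystine transporter that p53 is known to repress, stood at 12.5, 13.5 and 11.8 CPM before and 2.59, 1.92 and 3.16 CPM after.

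More collagens and growth factor genes fell than rose. Of 24 collagens 13 fell and 5 rose (median -0.83, the same with the 1 gene at 0 in vehicle at its bound). The 5 include COL2A1 and COL15A1, whose vehicle levels could not have passed the filter, so they could only be higher. With no filter 8 collagens were called higher. Their summed level was 2329 to 2529 CPM in vehicle and 2173, 2304 and 762.7 CPM after Nutlin, with the lowest value in replicate 3. COL1A1 went from 21 ± 1.87 to 0.948 ± 1.01 CPM, while COL17A1, a hemidesmosome collagen, stood at 26.1, 23.3 and 26.8 CPM and then 343, 354 and 166 CPM. COL4A5, a basement membrane collagen, rose by 3.06. Of 38 growth factor receptors and ligands 23 fell and 9 rose (-0.82), with NRG1 and PDGFRB at -1.51 and -2.59 and the KIT ligand KITLG at 2.53. Among 21 integrins 7 fell and 5 rose, with ITGB2 at -2.38 and ITGA10 at 1.61. Of 32 secreted factors linked to senescence 13 rose and 11 fell (0.15), so this group did not move one way. GDF15 and the plasminogen activator PLAT (2.08) rose, and the activin subunit INHBB and IGFBP3 changed by -3.05 and -1.79.

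Signalling and interferon genes were mixed too. Of 38 interferon-stimulated genes 12 rose and 11 fell (median -0.19), or 7 fell in a fit of the 6 libraries alone. OAS3 stood at 51.4, 49.2 and 52 CPM in vehicle and at 3.12, 2.28 and 2.01 CPM after Nutlin, and TRIM22, IFI16 and TLR3, each known as a p53 target, rose by 4.71, 2.01 and 3.21. Of 48 genes of Wnt, Notch and Hedgehog signalling 19 fell and 13 rose (-0.23). The 13 include HHATL, with no read in vehicle, and NOTCH3, whose vehicle levels could not have passed the filter, so both could only be higher. The Notch ligand JAG1 rose from 223 ± 10.8 to 654 ± 7.38 CPM, the Hedgehog acyltransferase HHAT by 3.36, and NOTCH3 stood at 0.351, 0 and 0.241 CPM and then 8.84, 8.51 and 2.27 CPM. The Wnt receptor FZD7 fell by 1.69. Of 39 immediate early and MAPK feedback genes 17 rose and 7 fell (0.30). The 17 include EGR2, which was too low for the filter in vehicle and could only be higher. EGR2 stood at 0.15, 0.0566 and 0.138 CPM before and 5.35, 5.03 and 5.99 CPM after, the feedback inhibitors SPRY1 and DUSP14 rose by 2.42 and 2.22, and EGR1 and KLF2 changed by -1.37 and -1.58.

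Most markers of bile duct epithelium were present before and after Nutlin. The summed level of 19 biliary markers was 6783 to 7199 CPM in vehicle and 8323 to 10590 CPM after Nutlin, with none at 0 counts, and of 17 tested 7 rose and 6 fell. The keratins KRT8, KRT7 and KRT19 held the most counts. ONECUT1 held 1 count in vehicle and 0 after Nutlin, and CFTR 5 and 9, summed over libraries. CLDN4 and ANXA4 rose by 1.48 and 1.35, and the junction genes CDH1 and EPCAM changed by -1.66 and -1.48. MUC1 went from 3.7 ± 0.254 to 0.375 ± 0.311 CPM (-3.38), and KRT7 changed by -0.66. Of 20 hepatocyte markers 3 held no count in the 6 libraries, and albumin held 4 counts in vehicle and 3 after Nutlin, summed over libraries. Other hepatocyte markers were present: SERPINA1 held 8037 and 16866 counts, HNF4A 911 and 245, and CPS1 443 and 283. Fibroblast, endothelial and leukocyte lists held 12, 7 and 10 genes, with 3, 1 and 4 at 0 counts, among them DCN, LUM, POSTN, CDH5, CD3D, CD3E and CD68. Other members of these lists were present. COL5A1 held 17963 counts in vehicle and 4816 after Nutlin, ESAM 2989 and 361, and CD74 1657 and 380. The summed fibroblast list went from 309.2 to 343.5 CPM down to 76.94 to 181.3 CPM, of which ACTA2, a smooth muscle actin, rose by 2.71. Of 26 housekeeping genes 8 rose and 9 fell (median -0.22), or 14 fell without vehicle_Nutlin replicate 3. Among RNAs without a poly(A) tail, RPPH1 stood at 174 CPM in vehicle_Nutlin replicate 2 and at 0 to 0.928 CPM in the other 5. In the main fit 5 of 5 such RNAs were called higher, but 0 were without that library or without vehicle replicate 1. The count was 1 in a fit of the 6 libraries alone and 2 with the replicate block, with voom, or without vehicle replicate 2 or 3. RN7SL1 and RN7SL2 nevertheless lay above all vehicle libraries in every vehicle_Nutlin library (45.1, 149 and 50 CPM against 20.5 to 40.8 CPM for RN7SL1).

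The same treatment in cells kept in AG-120 was compared gene by gene through the interaction term, and few differences passed the test. Of 15691 genes, 5 had a response that was higher with AG-120 (0.0319%) and 52 one that was lower (0.331%), and 1730 had an unadjusted p under 0.05. Of the 52, 41 had already fallen in vehicle cells, 8 had risen and 3 were not called. CTGF, a matricellular protein, stood at 81 ± 10.9 CPM in vehicle and 95 ± 6.84 in vehicle_Nutlin but at 95.4 ± 15.5 in AG120 and 31.2 ± 1.35 in AG120_Nutlin, a difference of -1.85 ± 0.19 (adjusted p = 0.001464). HMOX1, one of the 5, reached 130 ± 3.01 CPM in vehicle_Nutlin and 209 ± 3.11 in AG120_Nutlin, a difference of 0.96 ± 0.18 (adjusted p = 0.04483) whose call was lost with DESeq2 size factors, with the replicate block, with any single vehicle library left out and without vehicle_Nutlin replicate 1 or 2 (adjusted p from 0.0509 to 0.1589). The count of differences depended on the libraries and the tool. Without the 3 libraries that stand apart (vehicle_Nutlin replicates 2 and 3 and AG120 replicate 1) it was 185 higher and 452 lower, with 1 vehicle_Nutlin library left, taken to vary like the libraries of the other groups. Leaving out vehicle replicates 1, 2 or 3 left 1 higher and 22 to 27 lower, and leaving out vehicle_Nutlin replicate 3 gave 36 and 207.

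**Figure D5:**
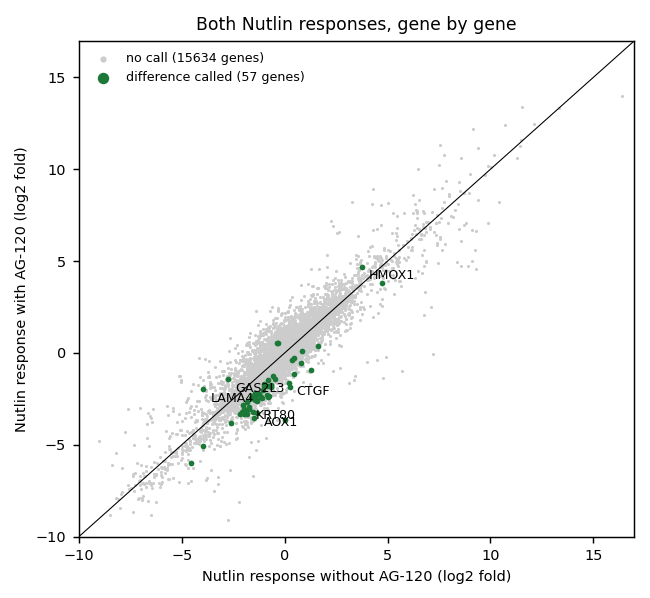
Each point is a tested gene, with its Nutlin response in vehicle cells on the x axis and in AG-120 cells on the y axis (both log2). The 5 and 52 genes whose responses differed by the interaction test are coloured, and most lie below the line of equal responses.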

How the data were processed

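The authors deposited 1 table of unnormalised counts, with a row for each gene symbol and hg19 positions. Per the submitters' processing notes the tools were STAR, HTSeq, DESeq2 and Partek and the build was hg19, with no versions and no statement of which made the counts, and strand use is not given in the sources used here. The labels' protocols give poly(A) capture and paired 150-base reads from a service company. All 28 entries whose symbol a spreadsheet had turned into a date stayed in the tests and are not named.

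Tests were run with edgeR 4.0.16 (limma 3.58.1, R 4.3.3). Low genes were removed by filterByExpr, given the 4 groups, and scaling used the trimmed mean of M values. All 12 libraries entered a single quasi-likelihood model (glmQLFit, glmQLFTest) of the 4 group means, tested first on simulated data. The SE of a change is its size divided by the square root of F. Total counts of 17239172 to 27499433 per compared library set the precision, and intervals and floors cover counting error only. The deposited end of a gene was lowered by 1. Sequences are RefSeq's, in GRCh38.p14, and no coordinate was converted between builds. Of the tested protein-coding genes, 9765 matched a promoter by symbol and 753 by an older symbol. The limit to protein-coding genes was set after seeing the data.

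The members and the gene lists were chosen with earlier results of these data known. Genes were named by rule: up to 4 members of each list with the smallest adjusted p and up to 2 called members against the list's median. Added were the 15 largest changes in each direction at a mean of at least 5 CPM without overlap, the 12 largest gains and losses in CPM, MDM2, CDKN1A and IDH1, and the 6 smallest adjusted p in each direction of the interaction. The text gives only part of those genes, and some are not reported here. The comparison was repeated with only its 6 libraries, with each of them left out, without the 3 libraries that stand apart, and with a replicate block. Scaling by library totals or by DESeq2 size factors, filtering at 1 CPM in 3 libraries or not at all, DESeq2 1.42.0 and limma voom with sample weights were also tried.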

Additional observations from a re-analysis of the deposited data

Results flagged for a closer look

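The Nutlin response differed between cells kept in vehicle and cells kept in AG-120, by the interaction term of edgeR's quasi-likelihood test, for 5 genes with a higher and 52 with a lower response under AG-120. Each value here is a difference of log2 responses, AG-120 minus vehicle, with 3 libraries per group. GAS2L3, a cytoskeletal linker, fell less with AG-120 (difference 1.36 ± 0.20, adjusted p = 0.009165), and so did LAMA4, a laminin chain (1.98 ± 0.37, adjusted p = 0.0446). IGFBP4, which binds insulin-like growth factors (0.92), and SLC6A6, the taurine transporter (0.87), changed by -0.37 and -0.33 in vehicle cells and by 0.55 and 0.54 in AG-120 cells. Their levels before Nutlin also differed, at 447 ± 3.26 CPM in vehicle and 288 ± 23.1 in AG120 for IGFBP4 and 89.5 ± 3.7 and 65.3 ± 5.61 for SLC6A6. After Nutlin IGFBP4 stood at 345 ± 44.6 CPM in vehicle_Nutlin and 421 ± 14.55 in AG120_Nutlin, and SLC6A6 at 71.2 ± 9.13 and 95.3 ± 1.1. HMOX1 rose by 3.74 in vehicle and by 4.70 with AG-120 (0.96). Leaving out any single vehicle library ended the calls of LAMA4, IGFBP4, SLC6A6 and HMOX1 (adjusted p from 0.06184 to 0.1589), and the replicate block ended those of LAMA4 (0.06919), IGFBP4 (0.05153) and HMOX1 (0.09153). LAMA4 was also not called with voom (0.09308) or without vehicle_Nutlin replicate 2 (0.06129), and HMOX1 also not with DESeq2 size factors (0.0509) or without vehicle_Nutlin replicate 1 (0.05704) or 2 (0.07033). On the lower side, CTGF differed by -1.85, with responses of 0.23 and -1.61. The matrix protein MATN2 (-1.25), the metalloproteinase MMP24 (-1.61), the keratin KRT80 (-1.19), the aldehyde oxidase AOX1 (-1.90) and the transaminase BCAT1 (-1.68) fell in vehicle cells and fell further with AG-120. The AG120 libraries used here also differed in transcript length bias (Spearman 0.399, -0.229 and -0.379 across genes), and the part of that in these differences was not tested.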

How the results depend on the processing

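The counts of genes called in vehicle cells stayed within 1.5 times of the values reported, at 3512 to 4732 higher and 3467 to 4850 lower over the alternatives tried. Library totals gave 3623 higher and 4772 lower, 43.2% of calls higher against 49.7%, with the median of all genes moved by -0.09. Of 300 genes followed, 11 changed call in some alternative (55 of 4493 gene and setting pairs lost it, 1 reversed): EEF1A1, LMNA, AHCTF1, CARS, NDUFS1, CCL26, MYH9, RN7SL1, RN7SL2, RPPH1 and RMRP. The reversal was RPPH1, at -0.12 without the 3 libraries that stand apart. The differences between the responses were the least stable. Higher and lower with AG-120, they numbered 26 and 197 with DESeq2, 80 and 203 with no filter, 75 and 358 with voom and sample weights, and 185 and 452 without the 3 libraries that stand apart. They ranged from 1 to 36 higher and from 22 to 207 lower with 1 library left out. The replicate numbers did not pair the samples: same-numbered deviations correlated at 0.02, -0.15 and -0.24 across genes, and not every library correlated best with its own number. A fit with the replicate block called 4012 higher and 4199 lower, and 2 and 30 differences. Genes silent before Nutlin numbered 40 at a level of 0.5 CPM, and those silent after it 15 at 0.5 CPM and 1 at 2 CPM. The check of promoters by size of change was void, with a promoter for fewer than 80% of those genes. At this depth a gene at 0 in all vehicle libraries may stand at up to 0.045 CPM.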
